A study of Mus musculus with 11 samples.

Results

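The 10 genes described here encode kinases that calcium and calmodulin switch on. They are the 4 genes of calcium/calmodulin-dependent kinase II (Camk2a, Camk2b, Camk2d and Camk2g), the 2 upstream kinases Camkk1 and Camkk2, the 3 kinase I genes Camk1, Camk1d and Camk1g, and Camk4. They were chosen by name as a family of kinases, with earlier results of these data known, and found by their Ensembl identifiers among 48709 listed genes. All 10 passed the filter on low counts, which asked for 5 or more counts in 50% or more of the samples and kept 17365 genes in all.

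RNA was sequenced from primary hippocampal neurons, which are neurons dissected from the hippocampus and kept in a dish, here from CD1 mouse embryos of embryonic day 17. On day in vitro (DIV) 10 the cultures received lipid nanoparticles loaded with a mimic of miR-181a-5p in 5 samples and with a negative control oligonucleotide in 6, and they were harvested after 48 hours on DIV 12. No sample was left without an oligonucleotide, and by the study's methods ApoE4 was added together with the particles in both groups. The same methods pooled the hippocampi of several embryos before plating, and the labels do not say which samples came from separate cultures, so the p-values measure the spread between these samples, which may be technical.

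Calmodulin binds calcium ions that enter an active synapse, and the complex then opens the catalytic site of these kinases. Kinase II forms large ring-shaped assemblies that can phosphorylate themselves and remain active after the calcium signal has passed, and it is abundant at hippocampal synapses, where it is needed for long-term potentiation and spatial memory. Kinases I and IV work in a cascade, since CaMKK has to phosphorylate them before they are fully active. Kinase IV resides mostly in the nucleus and acts on transcription factors such as CREB, whereas kinase I acts in the cytoplasm on the growth of axons and dendrites.

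The question put by the comparison was which genes change when miR-181a-5p is raised in neurons. A microRNA finds its targets mainly through its seed, bases 2 to 8 counted from the 5′ end, which pairs with complementary sites, most of them in the untranslated stretch behind the coding sequence (3′ UTR) of an mRNA. The added oligonucleotides are shown because every comparison rests on them, with the seed in capitals.
miR-181a-5p mimic: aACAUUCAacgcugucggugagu
negative control: uCACCGGGuguaaaucagcuug
The mimic is identical over its 23 bases to the mouse miR-181a-5p that RefSeq (GRCm38.p6) derives from both Mir181a-1 and Mir181a-2. The 7-base complement of its seed is TGAATGT, and that of the control seed is CCCGGTG.

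Among the kinases, 4 of 10 had TGAATGT in their longest annotated 3′ UTR, against 18.5% of the 14489 tested genes with such a UTR (sense strand only). These were Camk2b, Camk2d, Camk2g and Camkk2. The sites are printed to show where the members hold the full 7-base match, each 5′ to 3′ on the strand of the gene (build GRCm38), with the match in capitals.
Camk2b, chr11:5971464-5971491, minus strand: accctcagggcgTGAATGTgcccatgcc
Camk2d, chr3:126844401-126844429, plus strand: tattgttgctagTGAATGTAtgatagatg
Camk2g, chr14:20734936-20734963, minus strand: tagtgtttgttcTGAATGTtggtagtcc
Camkk2 first, chr5:122736457-122736484, minus strand: ttctggagcagaTGAATGTttttgcctc
Camkk2 second, chr5:122736087-122736114, minus strand: tgcatacatgtgTGAATGTgaacacaga
Camkk2 last, chr5:122733622-122733649, minus strand: agatgtaccaggTGAATGTgtgtggggt
The Camk2d match is followed by an A and so extends to the 8 bases TGAATGTA. Camkk2 held 3 matches in a UTR of 3502 bases, a number reached by 1.41% of the 780 tested genes whose UTR length was within 10% of that. Longer UTRs hold the match more often by their length alone, and 35.8% of the genes of that length had at least 1. The same share was above 18.5% for the lengths of Camk2a (36.1%), Camk2b (25.3%), Camk2d (35.4%), Camk2g (23.1%), Camkk1 (22.5%) and Camk1d (50.2%). It was below for Camk1 (3.59%), Camk1g (12.5%) and Camk4 (14.4%). The share of 18.5% is not matched for length, so an excess of matches among the kinases was not tested. The remaining 6 kinases, Camk2a, Camkk1, Camk1, Camk1d, Camk1g and Camk4, had 0 copies of TGAATGT in this window. The shorter match GAATGT, which pairs with bases 2 to 7 and is contained in every TGAATGT, occurred in 8 of 10 kinases and in 36.6% of the tested genes with a 3′ UTR. This share is not matched for length either. GAATGT was present once in each of Camk2a, Camkk1, Camk1d and Camk4, and was not found in Camk1 or Camk1g. The control match CCCGGTG was absent from the window in all 10 kinases. Camk2g alone was listed among the miR-181a-5p targets that the study predicted, and Camk2a was listed for miR-148a-3p, which was not added to these cultures.

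The samples carried between 17287168 and 48091231 counts. Control replicate 1 was the deepest, and the mitochondrial share of the counts was 3.03% to 3.48%. Log2 CPM (counts relative to a TMM-scaled library size) correlated at 0.996 or more between replicates of a group. The kinases were well covered, from 397 counts for Camk1 in its shallowest library to 96400 for Camk2a in its deepest.

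The abundance of the kinase transcripts in control neurons spanned about 2 orders of magnitude per length of all exons, and less per longest coding transcript. To compare genes, CPM was divided by the length of all annotated exons of a gene in kilobases. Camk2a, the alpha subunit that dominates the forebrain enzyme, was highest at 268 ± 4.37 CPM per kb (SD, n = 6). Camk4 followed at 149 ± 2.04 and Camk2b, the beta subunit that also binds actin, at 123 ± 1.14 CPM per kb. A wide gap separated these from the next gene, Camk1d, at 25.2 ± 0.771 CPM per kb. The gamma subunit gene Camk2g (22.6 ± 0.567) and Camk1g (20.9 ± 0.753) came next and were the only neighbours in this order whose samples overlapped. Below them lay Camkk1 at 16.001 ± 0.642, Camkk2 at 9.48 ± 0.234, Camk1 at 3.68 ± 0.199 and Camk2d, the delta subunit gene, at 2.78 ± 0.0926 CPM per kb.

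The order below the top gene depended on the length used. With the longest protein-coding transcript in place of all exons, a scale chosen after seeing the data, Camk2a remained highest at 402 CPM per kb, but Camk2b (279) passed Camk4 (178). Camk2d moved from 2.78 to 11.3 CPM per kb, since its exons cover 22493 bases in all and its longest coding transcript 5524. It was the lowest of the 10 on both scales.

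**Figure D1:**
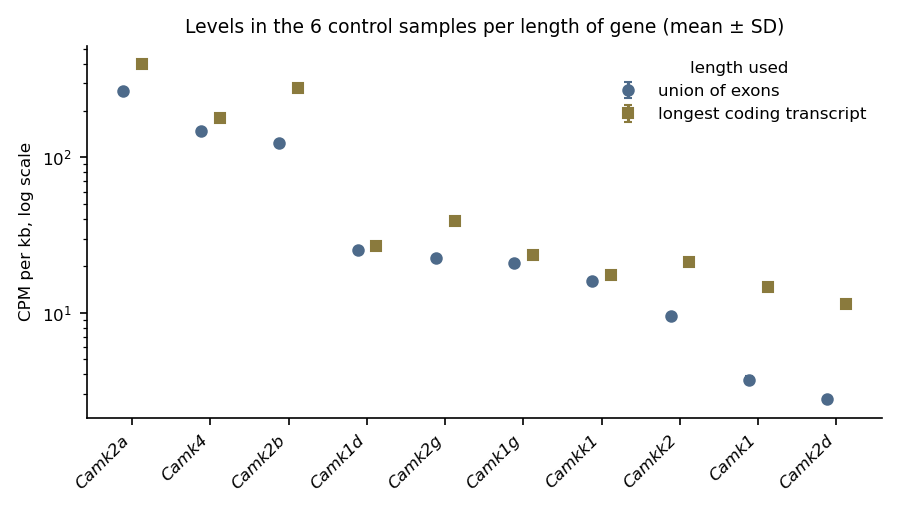
Level of each kinase gene in the 6 control samples in CPM per kb on a log scale (mean ± SD, error bars mostly smaller than the points), divided by the union of exons (circles) or by the longest coding transcript (squares). Camk2a, Camk4 and Camk2b lie far above the other 7 genes on both scales, and Camk2d is the lowest on both.

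Mimic-treated neurons had slightly less RNA of 2 kinase genes, Camk4 and Camk2a, and no kinase gene was called higher. Both fitted changes were smaller than 10%. Thus, 2 of 10 were called lower (edgeR quasi-likelihood test, adjusted p under 0.05), where 1.77% of all tested genes were called lower, 1.08% higher and 2.85% either way. Among the 7415 tested genes at least as abundant as Camk1, the least abundant kinase here by CPM, the share called lower was 3.49%. With 10 genes, 1 call more or less moves this share by 10 percentage points. The kinases were chosen with earlier results of these data known, so their comparisons with all genes are not independent. At an unadjusted p under 0.05, 5 kinases were lower (8.41% of all tested genes) and 0 higher, and 0 were called higher by DESeq2 or limma. The log2 fold change, mimic minus control, was below 0 for 8 of 10, against 50.1% of all tested genes, and its median was -0.047 against -0.00015. The groups did not overlap for 3 of 10, all lower (1.73% of all tested genes were lower without overlap, 2.89% either way). In bulk RNA, fewer cells of a type and less RNA per cell cannot be told apart.

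**Figure D2:**
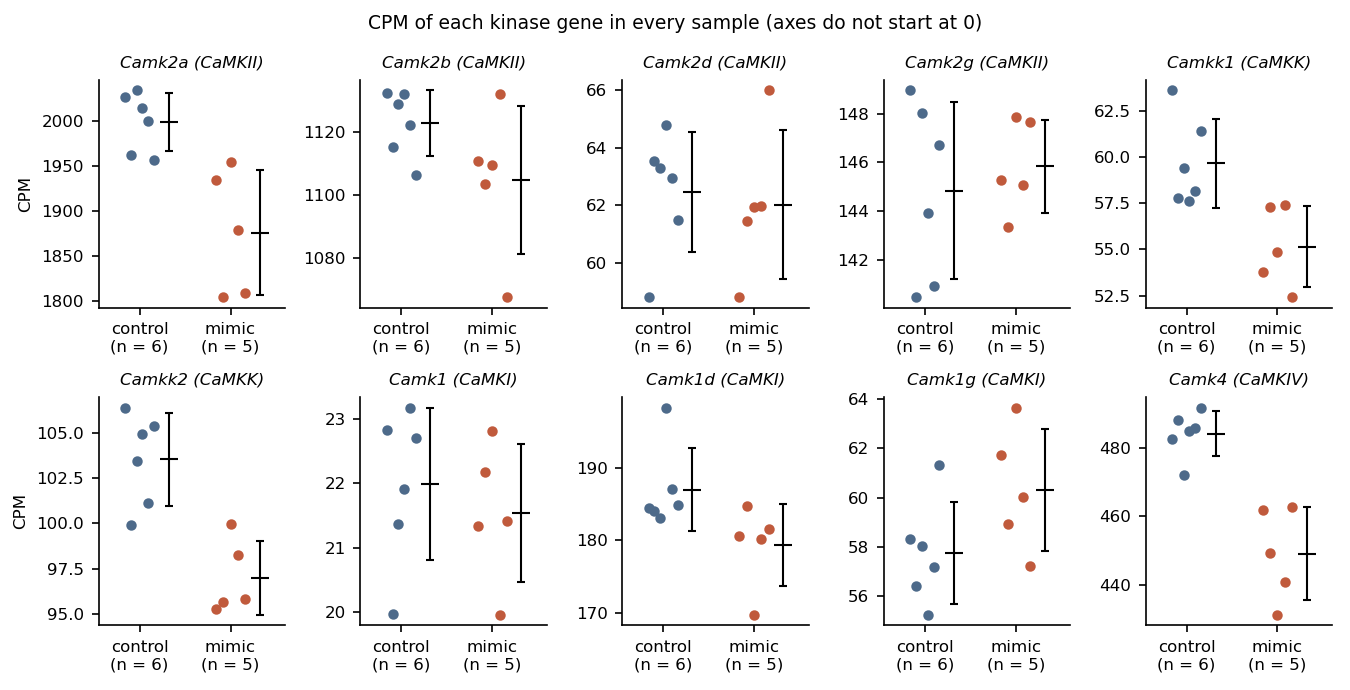
CPM of the 10 kinase genes in each of the 6 control and 5 mimic samples, 1 panel per gene with its own axis that does not start at 0; points are samples and bars are mean ± SD. The groups are apart for Camk2a, Camkk1 and Camk4, touch for Camkk2, and overlap for the other 6 genes.

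Among the subunits of kinase II, Camk2a was the only gene called. In the mimic samples it had 1934, 1804, 1954, 1879.7 and 1809 CPM, and the controls ran from 1957 over a median of 2007 to 2034 CPM. Mimic replicates 2, 4 and 5 were low, replicates 1 and 3 lay just below the lowest control, and the groups did not overlap. The log2 fold change was -0.091 (95% interval -0.14 to -0.043, edgeR adjusted p 0.0305), a change of -6.14%. When samples were left out singly, its call was lost in 7 of 11 fits, namely without control replicates 1, 3, 4 and 5 (edgeR adjusted p 0.0914, 0.0515, 0.0699 and 0.0524) and mimic replicates 2, 4 and 5 (0.122, 0.0817 and 0.0619), and with upper-quartile scaling (0.0541), although the direction was kept throughout.

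Camk2b had 1111, 1104, 1109.5, 1132 and 1068 CPM in the mimic samples, and the controls had a lowest, median and highest value of 1106, 1125 and 1132 CPM. Mimic replicate 5 was the lowest of all samples, mimic replicate 4 was as high as the highest controls, and the groups overlapped. A log2 fold change of -0.023 was fitted, with a 95% interval from -0.067 to 0.020 (edgeR adjusted p 0.686), so a decrease as large as that of Camk2a lay outside this interval.

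For Camk2d, which is expressed in most tissues and best known from the heart, the mimic samples had 58.8, 61.4, 61.9, 62.0 and 66.0 CPM, and the controls ran from 58.8 over 63.1 to 64.8 CPM. The groups overlapped over nearly their whole range, with mimic replicate 5 the highest sample. Its log2 fold change was -0.0076 (95% interval -0.076 to 0.061, edgeR adjusted p 0.953), and its sign turned in 5 of 20 alternative fits.

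Camk2g carries calmodulin from the membrane to the nucleus in neurons and was the predicted target among the 10. It had 145, 143, 148, 145 and 148 CPM in the mimic samples, while the controls had a lowest value of 140.5, a median of 145 and a highest value of 149 CPM. All 5 mimic samples lay within the range of the controls. Its fold change on the log2 scale was 0.0087, with a 95% interval from -0.043 to 0.061 (edgeR adjusted p 0.924), which in percent runs from -2.96% to 4.30%.

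The make-up of the kinase II pool follows from these values. Per length of all exons, Camk2a supplied 64.3% ± 0.182 (SD, n = 6) of the kinase II transcripts in control and 63.1% ± 0.704 (SD, n = 5) in mimic samples. Camk2b supplied 29.6% ± 0.174 and 30.4% ± 0.620, Camk2g 5.44% ± 0.118 and 5.73% ± 0.160, and Camk2d 0.668% ± 0.0249 and 0.694% ± 0.0438. The Camk2a share was below every control in all 5 mimic samples (62.3% to 64.0% against 64.1% to 64.6%), and with the longest coding transcripts the same 2 means were 55.0% and 53.7%. These shares use the Camk2a counts already described and are given without a test.

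The ratio of alpha to beta transcripts was compared directly, as a ratio within a library needs no scaling factor. Camk2a/Camk2b was 1.74, 1.64, 1.76, 1.66 and 1.69 in the mimic samples and ran from 1.76 to 1.80 in the controls. Of the 5 mimic samples, 4 lay below all controls, and mimic replicate 3 lay just above the lowest control, replicate 2. On the log2 scale the mean was 0.83 ± 0.012 (SD, n = 6) in control and 0.76 ± 0.045 (SD, n = 5) in mimic samples, a difference of -0.068 (95% interval -0.11 to -0.025, two-sided exact permutation test, p 0.00433, adjusted over 3 ratios 0.0130). Because the ratio contains Camk2a, it is not independent of the change in that gene, but it does compare the 2 genes with each other, and the difference between them passed the test with any single sample left out.

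The other ratios did not pass. Camk2d/Camk2g differed by -0.021 on the log2 scale (95% interval -0.11 to 0.073, exact permutation test, adjusted p 0.623), with a control SD of 0.076. The Camkk1/Camkk2 ratio differed by -0.019 (95% interval -0.085 to 0.050, exact permutation test, adjusted p 0.623). These intervals still allow shifts of the size seen for Camk2a/Camk2b.

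**Figure D3:**
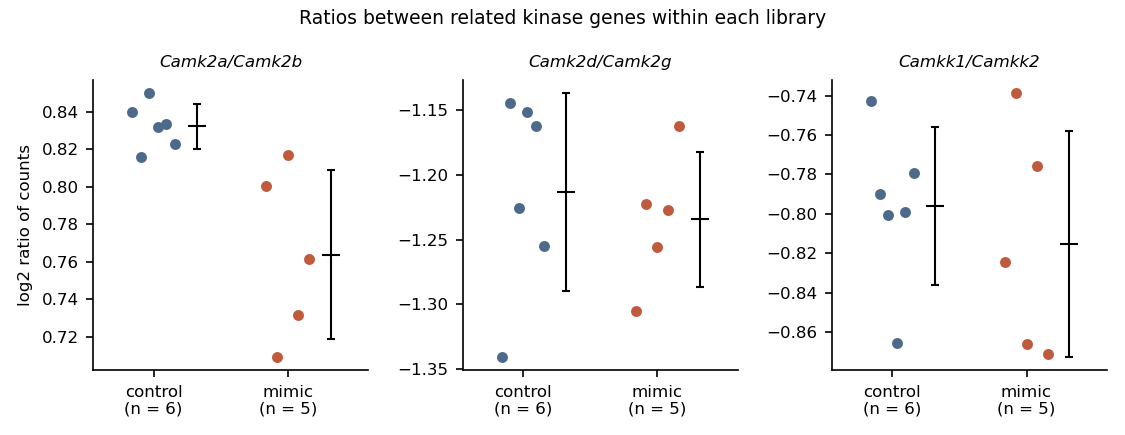
Log2 ratio of counts between related kinase genes in each of the 6 control and 5 mimic samples, with mean ± SD, each panel on its own axis. For Camk2a/Camk2b, 4 of 5 mimic samples lie below all controls, and for the other ratios the groups overlap widely.

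The upstream kinases Camkk1 and Camkk2 phosphorylate kinases I and IV, and Camkk2 also phosphorylates AMPK, the energy sensor of the cell. Camkk1 had 53.8, 57.3, 54.8, 57.4 and 52.4 CPM in the mimic samples, and the controls had a lowest value of 57.6, a median of 58.8 and a highest value of 63.6 CPM. The groups did not overlap, but mimic replicates 2 and 4 lay just below the lowest control. The log2 fold change, -0.11, was the most negative of the 10 (95% interval -0.19 to -0.044), and it missed the threshold (edgeR adjusted p 0.0704).

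Camkk2, the gene with 3 seed matches, had 95.3, 95.6, 99.95, 98.3 and 95.8 CPM in the mimic samples, and the controls ran from 99.91 over 104 to 106 CPM. Only mimic replicate 3 reached into the range of the controls, just above control replicate 2. Its log2 fold change of -0.096 (95% interval -0.15 to -0.040) also missed the threshold with an edgeR adjusted p of 0.0540. Camkk2 was called in 3 of 20 alternative fits, by DESeq2 (adjusted p 0.0278) and by edgeR with the filterByExpr filter (0.0484) or without control replicate 2 (0.0499), and not in the others, limma (0.0698) among them, with adjusted p-values up to 0.182. Camkk1 was called in 1 of 20, by edgeR without a count filter (adjusted p 0.0364), and elsewhere not, with DESeq2 at 0.0803, limma at 0.0858 and the highest adjusted p, 0.238, without control replicate 1.

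The kinase I genes had 0 calls of 3, by edgeR, DESeq2 and limma, and 1 lower at an unadjusted p under 0.05. Camk1, studied in growing axons, had 21.3, 22.2, 22.8, 19.96 and 21.4 CPM in the mimic samples and 19.97, 22.3 and 23.2 CPM as the lowest, median and highest of the controls. The groups overlapped over nearly their whole range. Camk1 had a log2 fold change of -0.034 (95% interval -0.13 to 0.063, edgeR adjusted p 0.821). Exons of Camk1 share 232 of 5975 bases (3.88%) with Ogg1 on the opposite strand, and no option for strand was stated, so reads of the shared bases cannot be assigned to either gene.

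Camk1d, the most abundant kinase I gene per length, had 180.6, 185, 169.7, 180.2 and 182 CPM in the mimic samples, and the controls ran from 183 over a median of 185 to 198 CPM. Mimic replicate 3 was the lowest and control replicate 4 the highest sample, and mimic replicate 2 lay inside the range of the controls. For Camk1d the log2 fold change was -0.060 (95% interval -0.12 to -0.0035, edgeR adjusted p 0.280). It moved to -0.036 without control replicate 4 and to -0.036 without mimic replicate 3, where the unadjusted edgeR p rose from 0.0381 to 0.194 and 0.205. Camk1g, whose lipid-anchored product acts on dendrites, had the most positive change of the 10. It had 61.7, 58.9, 63.7, 60.0 and 57.2 CPM in the mimic samples and a lowest, median and highest value of 55.2, 57.6 and 61.3 CPM in the controls. Mimic replicates 1 and 3 lay above all controls and the other 3 inside their range. Camk1g had a log2 fold change of 0.061 (95% interval -0.0078 to 0.13, edgeR adjusted p 0.399).

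Camk4 was the kinase with the smallest p. In the mimic samples it had 461.7, 449, 431, 441 and 462.6 CPM, and the controls ran from 472 over a median of 485 to 492 CPM. All 5 mimic samples lay below all 6 controls. The log2 fold change was -0.11 (95% interval -0.16 to -0.059, edgeR adjusted p 0.0113), a change of -7.21%, and the gene ranked 149 of 17365 by p. It remained called in 20 of 20 alternative fits, with adjusted p-values from 0.000828 to 0.0471. Camk4 (chromosome 18, bases 32934931 to 33191228, plus strand) shares 72 of its 3259 exon bases with the antisense gene 2310026I22Rik, which held 7.36 counts per sample on average.

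**Figure D4:**
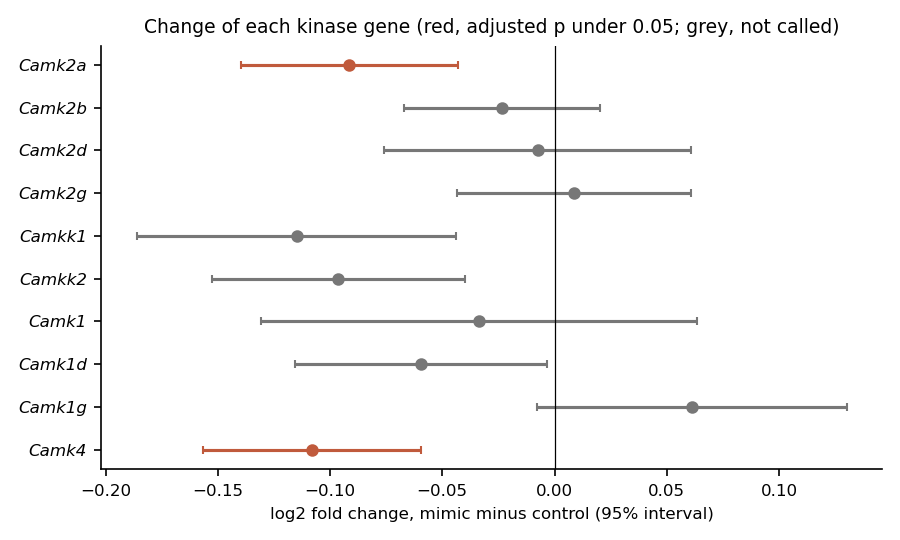
Log2 fold change (mimic minus control) of each kinase gene with its 95% interval from the edgeR fit over all genes, red where the adjusted p is under 0.05. Camk2a and Camk4 are called, Camkk1, Camkk2 and Camk1d have intervals below 0 without a call, and the other 5 intervals span 0.

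The position of the seed matches can now be set beside the changes. Neither called kinase, Camk4 or Camk2a, had TGAATGT in its 3′ UTR, and each had 1 copy of the shorter GAATGT. The 4 kinases with the 7-base match had a median log2 fold change of -0.015 (from -0.096 for Camkk2 to 0.0087 for Camk2g), and the 6 without one had -0.076 (from -0.11 for Camkk1 to 0.061 for Camk1g). Over all tested genes with a 3′ UTR the medians were -0.024 for the 2676 with a match and 0.0055 for the 11813 without. The absence of the 7 letters from the annotated window does not bear on sites elsewhere or of another kind.

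The partners of the kinases were followed with a list of 67 genes in 7 roles, all of which were tested. Of these, 4 were called lower, namely Grin2b, Tiam1, Kalrn and Crebbp, and 0 higher (edgeR quasi-likelihood test, with 12 lower and 3 higher at an unadjusted p under 0.05, and the same counts of 4 and 0 by DESeq2 and by limma). Over all tested genes, 1.77% were called lower and 8.41% were lower at an unadjusted p under 0.05. The matching share of higher genes was not determined, so counts of higher genes at this p, here and below, stand without it. The list was chosen with earlier results of these data known, so its comparisons with all genes, whole or by role, are not independent. The list had a median log2 fold change of -0.019, with 42 genes below 0 and 25 above, where 50.1% of all tested genes were below 0 and their median was -0.00015. The count depended on single samples. It was 0 without mimic replicate 2 (edgeR, where 12 had an unadjusted p under 0.05), 1 with control replicate 1 left out, and 2 without control replicate 4, 5 or 6, and it was 8 when no count filter was used.

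Substrates at the synapse and in the cytoplasm held 3 of the 4 calls, and all 7 had a log2 fold change below 0 (median -0.068), as 50.1% of all tested genes did. Grin2b, the NMDA receptor subunit that docks kinase II at the synapse, had 883, 822, 803, 857 and 879.9 CPM in the mimic samples and 856 to 956 CPM in the controls. The mimic samples were low, but control replicate 2 was lower than 3 of them. Its log2 fold change was -0.13 (SE 0.029, edgeR adjusted p 0.0145), and the call was lost without mimic replicate 2 (0.0647).

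Tiam1 and Kalrn are exchange factors for Rac that kinase II phosphorylates in dendritic spines. Tiam1 had 108, 104, 109.8, 109.97 and 97.6 CPM in the mimic samples, all below the controls at 111 to 121 CPM (log2 fold change -0.14, SE 0.032, edgeR adjusted p 0.0162). It was not called without control replicate 1 (0.0656) or mimic replicate 2 (0.0573). Kalrn had 258, 258, 266, 265 and 249 CPM in the mimic samples and 263 to 288 CPM in the controls. Control replicate 2 alone lay within the range of the mimic samples. Kalrn was at -0.11 on the log2 scale (SE 0.027, edgeR adjusted p 0.0248), and the call was lost without control replicate 1, 4, 5 or 6 (0.0914, 0.0521, 0.0573 and 0.0522) and without mimic replicate 2 or 5 (0.0721 and 0.0541).

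Nuclear targets, the arm served by Camk4, had 1 call of 16, with 14 of 16 log2 fold changes below 0 (50.1% over all tested genes) and a median of -0.043. Crebbp, the coactivator that binds phosphorylated CREB, had 72.2, 65.2, 65.7, 69.7 and 66.3 CPM in the mimic samples and 68.8 to 76.4 CPM in the controls. The groups overlapped through control replicate 2 and mimic replicates 1 and 4. Its log2 fold change was -0.13 (SE 0.033, edgeR adjusted p 0.0340), and 8 of the 11 fits without 1 sample no longer called it (control replicates 1, 4, 5 and 6, with edgeR adjusted p 0.115, 0.0823, 0.0648 and 0.0593, and mimic replicates 2, 3, 4 and 5, with 0.132, 0.0893, 0.0535 and 0.0624). Upper-quartile scaling (0.0541) also ended its call, which held in 10 of 20 alternatives. Mef2c, a transcription factor that calcium signals release from repression, had the next smallest p in this role at -0.066 (edgeR adjusted p 0.208).

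The other 5 roles had 0 calls each by edgeR, DESeq2 and limma, although some alternative edgeR fits gained calls. Of 13 related kinases, 6 were below 0, and the smallest p-values were those of Pnck, an activity-induced member of the kinase I family (-0.12, edgeR adjusted p 0.0938), and Dclk2, a doublecortin-like kinase (-0.059, 0.194), with 2 genes lower at an unadjusted p under 0.05. Among the 4 inhibitors and anchors of kinase II the lowest p fell to Lrrc7, a scaffold of the postsynaptic density that binds the kinase (-0.12, edgeR adjusted p 0.138), and to the actin cross-linker Actn2 (-0.062, 0.571), with 1 lower at an unadjusted p under 0.05. Of 8 genes for calmodulin and the proteins that store it, Nrgn, the postsynaptic store, had -0.13 (edgeR adjusted p 0.0782) and Gap43, its growth cone counterpart, had 0.060 (0.242), the 2 genes of this role at an unadjusted p under 0.05.

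The phosphatases and their regulators, which oppose the kinases, had 1 gene lower and 2 higher of 13 at an unadjusted p under 0.05. Over all tested genes 8.41% were lower at this p, and the share higher was not determined. Rcan3, a regulator of calcineurin, had 0.11 (edgeR adjusted p 0.105) and Ppp3r1, the regulatory subunit of calcineurin, had -0.12 (0.170). The 6 AMPK subunits, downstream of Camkk2, had 0 genes at an unadjusted p under 0.05, led by Prkab2 (0.039, edgeR adjusted p 0.554) and Prkab1 (0.049, 0.732). Without a count filter, edgeR called Pnck (adjusted p 0.00697), Lrrc7 (0.00403), Nrgn (0.0225) and Ppp3r1 (0.000982) lower. Lrrc7 was also called lower without control replicate 2 (0.0136) or mimic replicate 1 (0.0304), and Pnck without control replicate 3 (0.0378). Rcan3 was called higher without control replicate 2 (0.0308).

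**Figure D5:**
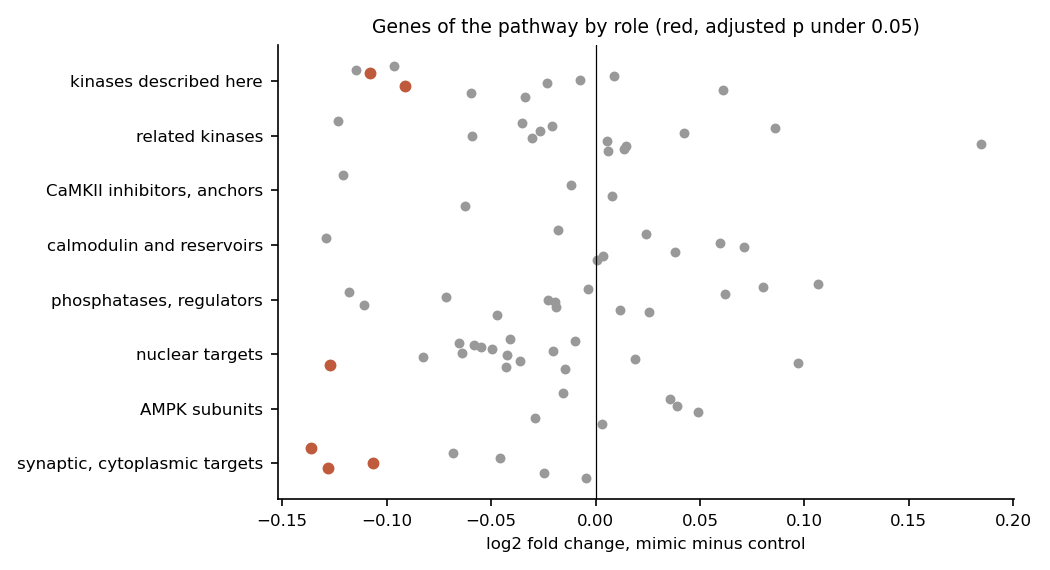
Log2 fold change (mimic minus control) of the 10 kinase genes and the 67 listed partner genes by role, 1 point per gene, red where the edgeR adjusted p is under 0.05. The called genes all lie below 0, and all 7 synaptic and cytoplasmic targets lie below 0, whereas calmodulin genes, phosphatases and AMPK subunits lie on both sides.

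Markers of cell types were read beside these values, since the kinases differ in abundance between cells of the hippocampus. Neuronal markers were abundant (6 listed, summed level 6835 to 6994 CPM in control and 6757 to 6934 in mimic samples, Map2 the highest), and 0 of 6 were called, with 4 lower at an unadjusted p under 0.05 (8.41% of all tested genes). The 6 markers of excitatory neurons, the cells with the most kinase II, summed to 1546 to 1634 CPM in control and 1445 to 1544 CPM in mimic samples, without overlap. Of these, the vesicular glutamate transporter Slc17a7 was lower at -0.14 (edgeR adjusted p 0.0239), and its relative Slc17a6 was higher at 0.28 (0.000519). The part of these markers in the changes of Camk2a and Camk4 was not tested.

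The cultures also held other cells. Astrocyte markers (Slc1a3 the most abundant) summed to 2102 to 2334 CPM in control and 1993 to 2195 CPM in mimic samples, inhibitory neuron markers (Gad1) to 461.95 to 502 and 451 to 486, oligodendrocyte lineage markers (Olig1) to 313 to 378 and 285 to 329, and microglia markers (Csf1r) to 13.01 to 13.6 and 12.6 to 13.8 CPM. No gene of these 4 lists was called by edgeR or limma (2, 1, 2 and 1 of 6 lower and 0, 1, 0 and 1 higher at an unadjusted p under 0.05), and DESeq2 called 1 of them, Olig1, lower. Fibroblast and vascular markers (Col3a1) summed to 217 to 334 CPM in control and 345 to 451 CPM in mimic samples, without overlap, with 0 of 5 tested called by edgeR or limma, 4 higher at an unadjusted p under 0.05 and 3 higher by DESeq2 (the collagen genes Col1a1, Col1a2 and Col3a1). Markers of cycling cells summed to 40.3 to 47.9 and 48.9 to 58.8 CPM, also without overlap, and 2 of 4 were called higher (Top2a, 0.38, edgeR adjusted p 0.00188, and Cdk1, 0.38, 0.0203). Of all tested genes, 1.08% were called higher. No marker was at 0 in all samples, and their part in the lower levels of Camk4 and Camk2a was not tested.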

How the data were processed

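The authors prepared libraries from polyA RNA with the TruSeq kit v2, sequenced 50 bp single-end reads, checked them with FastQC 0.11.5, mapped them to mm10 with STAR 2.5.2b and deposited raw counts per Ensembl gene made with featureCounts (Subread 1.5.1), 1 table per sample. Which annotation was counted, and how strand and multi-mapped reads were handled, was not given in the sources used here. The authors also deposited a normalized signal of 16921 genes, which equalled the counts divided by 1 size factor per sample (largest relative deviation 5.1e-10) and served as an alternative. The number of value columns without a sample was 0, and 0 count rows lacked a gene. Gene models came from GENCODE M21 (GRCm38), which matched 48349 of 48709 genes. For seed matches, the longest 3′ UTR of each gene was read.

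Counts were tested with edgeR 4.0.16 (R 4.3.3): TMM scaling, robust quasi-likelihood F test on group, two-sided, Benjamini-Hochberg adjustment over 17365 genes, threshold 0.05, after the filter of the study's methods. The study used DESeq2, here an alternative (1.42.0), as was limma 3.58.1 on log2(value + 1) or log2(value + 0.5) of the normalized table. Ratios were compared by exact permutation of the sample groups. Intervals come from the spread between samples, which includes counting error. A count of 0 would allow up to 3 counts, or 0.0631 to 0.175 CPM, for counting error only, since reads that carry no molecular identifier may be copies of 1 molecule.

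The members and lists were chosen with earlier results of these data known. Named were all 10 kinases, every called partner gene, in each role the 2 genes with the smallest p, and the most abundant marker of each list. Slc17a6, Cdk1, Col1a1 and Col1a2 were named after their values were seen. Other alternatives were RLE and upper-quartile scaling, no count filter, filterByExpr, leaving out each sample, a replicate block, and thinning of control replicate 1.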

Additional observations from a re-analysis of the deposited data

Results flagged for a closer look

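Of 26 sets of values in groups of 4 to 10 samples that were examined for a sample far from the others, 1 was marked, where chance alone gives about 1.3. Camk1d in control replicate 4 had 198 CPM and the next highest control 187 CPM, a gap of 0.725 of the whole range of the control group on the log2 scale. Without this sample the log2 fold change of Camk1d went from -0.060 to -0.036 and its unadjusted edgeR p from 0.0381 to 0.194. The gene was called in 0 of 20 alternative fits (edgeR, DESeq2 or limma adjusted p from 0.253 to 0.620).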

How the results depend on the processing

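Of 200 log2 fold changes of the 10 kinases under 20 alternatives, 183 kept direction and side of the threshold, 8 lost a call (all Camk2a), 4 gained one (Camkk2 and Camkk1) and 5 turned sign. The turned values were all Camk2d, at 0.0027 with upper-quartile scaling, 0.0042 without control replicate 2, 0.0093 without control replicate 4, 0.011 without mimic replicate 1 and 0.0013 with control replicate 1 thinned, and leaving out single samples gave -0.028 to 0.011 for this gene. The number of kinases called was 1 with upper-quartile scaling and from 1 to 3 when 1 sample was left out. For the 67 partner genes it was 4, but 8 without a count filter and from 0 to 6 when 1 sample was left out. The 6 calls, without control replicate 2, were 5 lower and Rcan3 higher (0.13, edgeR adjusted p 0.0308). The differences in the 3 ratios kept direction and call throughout (Camk2a/Camk2b adjusted p up to 0.0476, exact permutation test).

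Same-numbered samples did not deviate together more than others (correlations -0.053 to 0.049 over 5 pairs, against -0.12 to 0.12 for differently numbered pairs). Whether equal numbers mark a shared culture is not stated, and these values cannot exclude it. The fit with a replicate block used only samples numbered 1 to 5, so control replicate 6 was absent from it. It called 2 kinases and 2 partner genes, with Kalrn (edgeR adjusted p 0.0988) and Crebbp (0.0625) no longer among them. Omitting control replicate 6 without any block also gave 2 kinases and 2 partner genes. Kalrn (edgeR adjusted p 0.0522) and Crebbp (0.0593) were not called there either. The part of the block itself in these losses was not tested. Calls over all genes ranged from 218 without control replicate 1 to 785 without a count filter. Upper-quartile scaling called 226 genes lower of 460, against 307 of 495, and shifted the median of all genes by 0.010 on the log2 scale. The causes of these shifts were not tested.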
